A study of Rattus norvegicus with 10 samples.

Results

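The comparison described here sets A7r5 cells carrying a BMPR2 with a mutated extracellular domain (ED mutant) against A7r5 cells carrying a BMPR2 with a mutated cytoplasmic tail (CD mutant). It rests on 4 of the 10 arrays in the series, 2 for each mutant, chosen by their labels alone. The ED mutant is labelled T354G and the CD mutant 2579-2580delT; a further 4 arrays, 2 of cells with the wild-type human BMPR2 and 2 of cells with an empty vector, entered the fit so that the spread between arrays could be estimated, and the 2 arrays of a kinase domain mutant were left out of filter and fit. All groups were labelled as cells of the same rat line, A7r5, of vascular smooth muscle, kept under normoxia at about 50% confluence in 10% serum. By that label the receptor gene of the rat cell itself was present in all of them. Whether all arrays come from 1 line was not tested. Both mutants and the wild-type receptor are labelled as stable transfections; of the empty vector arrays the descriptions say the same, while their titles call the cells native, and this difference between the labels was not settled. Whether each line was 1 clone or a pool, and which promoter drove the receptor, is not given in the sources used here. Nothing in the labels tells whether a group's 2 arrays are separate cultures, and the p-values therefore cover only array-to-array spread, possibly of technical origin.

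Bone morphogenetic proteins (BMPs) signal through pairs of receptors, and BMPR2 is the type II member of such a pair. Its extracellular domain takes part in binding the ligand, its kinase domain activates type I receptors that phosphorylate Smad proteins, and its long cytoplasmic tail, which most other receptors of the family lack, binds proteins that act on the cytoskeleton, such as LIM kinase and Src. Smads drive the Id genes, which encode inhibitors of differentiation. Germline mutations in each of these regions of BMPR2 are known from heritable pulmonary arterial hypertension, a disease in which the smooth muscle of small lung arteries thickens. The comparison therefore sets a receptor altered where the ligand binds beside a receptor altered where the tail binds its partners.

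Values are log2 summaries of probe sets on an Affymetrix rat array, as the authors deposited them, and the number of arrays limits their precision. The 2 ED mutant arrays correlated at 0.994 over the tested probe sets and the 2 CD mutant arrays at 0.993, while pairs of 1 ED and 1 CD mutant array correlated at 0.990 to 0.993. The median difference between the 2 arrays of a group was 0.11 for the ED mutant and 0.12 for the CD mutant on the log2 scale. Spiked-in poly-A controls, which are added to the RNA before labelling, averaged 8.26 on the ED mutant arrays and 8.59 on the CD mutant arrays, with no overlap. The 2 wild-type BMPR2 arrays stood at 7.49 and 8.34, further apart than the mutants, and the empty vector arrays averaged 7.89. The log2 difference between the 3′ and 5′ probe sets of the rat Gapdh control, a sign of RNA integrity, was 0.37 and 0.38 on the ED mutant arrays and 0.43 and 0.41 on the CD mutant arrays. The same difference overlapped between the mutants for beta-actin (1.08 and 1.14 in the ED mutant, 1.11 and 1.12 in the CD mutant) and for hexokinase (1.96 and 2.01 in the ED mutant, 2.05 and 1.99 in the CD mutant). Their part in the results below was not tested.

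The label vascular smooth muscle was read against marker genes. Of 12 smooth muscle markers, 7 passed the filter on dim probe sets (log2 4.90 on at least 2 of the 8 arrays), among them Smtn (smoothelin) and Mylk (myosin light chain kinase), and 0 differed between the mutants. Calponin (Cnn1), leiomodin (Lmod1), the smooth muscle coactivator Myocd, Actg2 and Itga8 lay below it, and Tagln (transgelin) was close to it, at 4.82 to 5.19 over the 8 arrays. Of 12 epithelial markers on the array, 10 passed the filter, with Cdh1 at 9.22 to 10.27 and Krt18 at 11.26 to 11.82 over the 8 arrays, while Epcam and Cldn4 did not pass. The cells are therefore called by their construct below. Markers of other cell types passed the filter too: 5 of 11 for fibroblasts, 1 of 9 for endothelium, 5 of 8 for skeletal muscle, 5 of 7 for leukocytes and 6 of 8 for neural cells, so passing it does not identify a cell type. The cell types differed more at bright levels. By mean rank over the 8 arrays, 6 of 12 epithelial and 2 of 12 smooth muscle markers lay above the 80th percentile. The same held for 1 fibroblast and 1 endothelial marker, and for 0 of skeletal muscle, leukocytes and neural cells. Because whole cultures were measured, fewer cells of a kind and less RNA per cell cannot be told apart.

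The ED mutant cells differed from the CD mutant cells in 145 of 19534 tested probe sets, with 89 higher and 56 lower in the ED mutant. The changed probe sets belonged to 78 named genes that were higher and 44 that were lower, with 0 genes called in both directions, and 6 higher and 10 lower probe sets had no gene name. Among the genes that were higher were the skeletal actin Acta1, adhesion proteins, keratins, secreted plasma proteins and metabolic enzymes. Among those that were lower were matrix proteins, a myosin, a cadherin and, by 1 probe set only, the peptide hormone apelin. Most differences were small: the median fold of the changed probe sets was 1.54, the range was 1.37 to 2.54, and 12 higher and 5 lower probe sets reached 2-fold. A probe set was called changed at an adjusted p under 0.05 from limma, a linear model fitted to every probe set, with Benjamini-Hochberg adjustment over the 19534. By that rule 0.742% of the probe sets changed, 0.456% higher and 0.287% lower. With 1 probe set per gene, that with the highest mean, 1.01% of 10904 genes were called, 0.688% higher and 0.321% lower. The counts of gene lists and markers below stand beside this share, and 0 calls in a short list lies near it. Because the lists were chosen with earlier results of these data known, a count above the share is a description. It does not test whether a list holds more changed genes than others. An unadjusted p under 0.05 was found for 2619 probe sets, where 977 would be expected without any difference. The arrays of the mutants did not overlap for all 145 changed probe sets, but neither did they for 41.8% of all those tested, so non-overlap alone says little here. The number of calls depended on having both arrays of each group: it was 41 without ED mutant array 1, 24 without ED mutant array 2, 29 without CD mutant array 1 and 54 without CD mutant array 2.

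**Figure D1:**
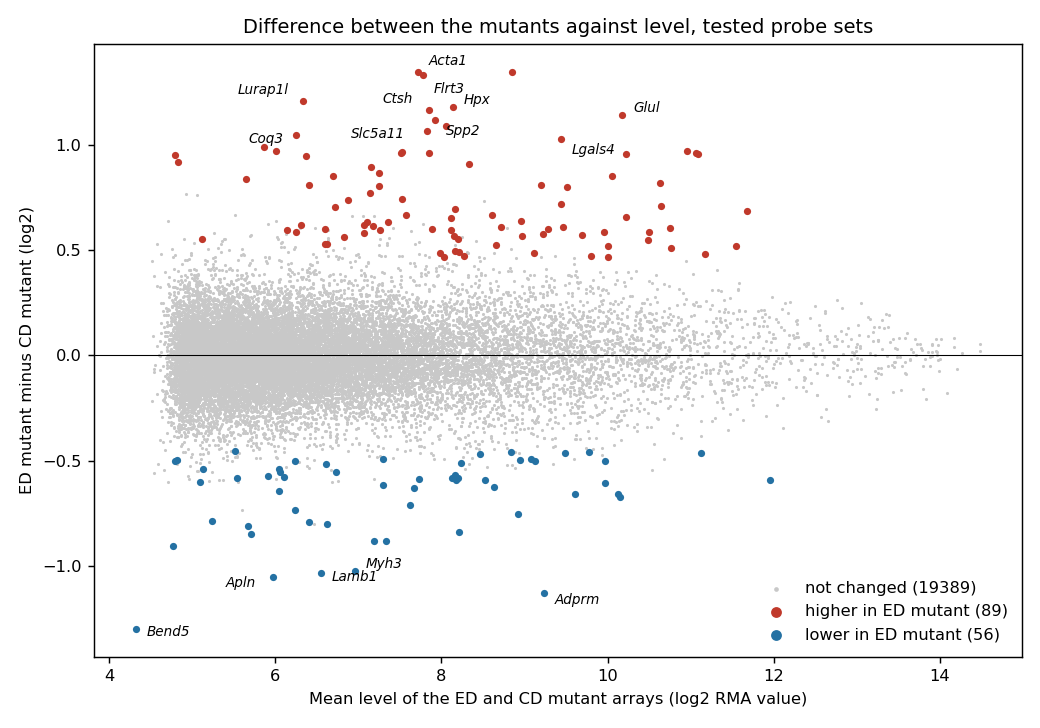
Each point is 1 of the 19534 tested probe sets; the horizontal axis is the mean log2 value of the ED and CD mutant arrays and the vertical axis the ED mutant minus CD mutant difference (log2). Of the probe sets, 89 were higher (red) and 56 lower (blue) in the ED mutant, and names are given for the largest differences. A filter at the 60th percentile was passed by 134 of the 145 changed probe sets and by 13099 of all 19534.

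Acta1, the actin of skeletal muscle, had the largest difference among the named genes. It stood at 8.39 and 8.38 on the ED mutant arrays and at 6.99 and 7.10 on the CD mutant arrays, against 7.23 and 6.80 with wild-type BMPR2 and 6.42 and 5.99 with the empty vector. Both ED mutant arrays lay above all 6 others. The difference was 1.34 on the log2 scale (SE 0.16), a 2.54-fold higher level, with an adjusted p of 0.00575. Flrt3, an adhesion protein with leucine-rich repeats that sits in the membrane, followed, at 8.37 and 8.51 in the ED mutant and 7.02 and 7.20 in the CD mutant. Its difference was 1.33 (SE 0.106, adjusted p = 0.00153), again with both ED mutant arrays above the 6 others. Lurap1l had 6.85 and 7.02 in the ED mutant and 5.58 and 5.87 in the CD mutant (2.31-fold, adjusted p = 0.00513). An unnamed probe set had the lowest adjusted p of all, 0.000892, with 9.51 and 9.53 in the ED mutant and 8.11 and 8.24 in the CD mutant. Leaving out 1 of the 4 mutant arrays kept the call for Flrt3 and for the unnamed probe set each time. For Acta1 the call held only without CD mutant array 2, with adjusted p-values of 0.0426 to 0.0682 over the 4 fits, and for Lurap1l they ran from 0.0178 to 0.0631, with the call lost without ED mutant array 2 and without CD mutant array 1.

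Several enzymes and transporters were about 2-fold higher in the ED mutant. Glul encodes glutamine synthetase, which makes glutamine from glutamate and ammonia. It had 10.83 and 10.66 in the ED mutant and 9.63 and 9.59 in the CD mutant (difference 1.14, SE 0.0932, adjusted p = 0.00153). Its other probe sets moved alike, by 1.09 and 0.96, so all 3 passed the test and in none did the mutants overlap. Ctsh, the lysosomal aminopeptidase cathepsin H, had 8.52 and 8.35 in the ED mutant and 7.16 and 7.39 in the CD mutant (2.24-fold, adjusted p = 0.00207). With the empty vector Ctsh stood at 8.005 and 8.055, between the mutants, and with wild-type BMPR2 at 7.41 and 7.46, next to the CD mutant. It was the only 1 of 14 tested lysosomal proteases and membrane proteins called by the probe set with the highest mean; Ctsl and Ctsd had 0.36 and 0.26 without passing (adjusted p = 0.217 and 0.226). A probe set of the lysosomal membrane protein Lamp2 was higher by 0.61 (adjusted p = 0.0227), but its other probe set was not called (0.05, adjusted p = 0.841). Slc5a11, a sodium-coupled carrier of myo-inositol, had 8.27 and 8.44 in the ED mutant and 7.10 and 7.48 in the CD mutant, and only 6.03 and 6.39 with the empty vector (ED over CD 2.09-fold, adjusted p = 0.0134). It was the 1 member called of 18 tested solute carriers, whose median was -0.08; Slc7a7, a carrier of basic amino acids, had 0.77 without passing (adjusted p = 0.0529). Coq3, a methyltransferase of ubiquinone synthesis, had 6.77 and 6.76 in the ED mutant and 5.97 and 5.48 in the CD mutant (2.06-fold, adjusted p = 0.0124), while the other 21 tested genes of oxidative phosphorylation and ubiquinone synthesis were not called. Sult2b1, a sulfotransferase of cholesterol, was higher by both its probe sets, by 0.99 and 0.74. Leaving out single arrays kept the calls of Ctsh and of 2 of the 3 Glul probe sets; adjusted p-values reached 0.0992 for Slc5a11 and 0.115 for Coq3, the highest without ED mutant array 2 and without ED mutant array 1.

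Secreted proteins known from liver and gut also stood higher. Hpx, hemopexin, which binds free haem in plasma, had 8.91 and 8.54 in the ED mutant and 7.61 and 7.49 in the CD mutant (difference 1.18, SE 0.127, adjusted p = 0.00433). Fgb, the beta chain of fibrinogen, had 6.51 and 6.48 in the ED mutant and 5.47 and 5.58 in the CD mutant, a difference of 0.97 (SE 0.127, adjusted p = 0.0102), and 4.88 and 4.98 with the empty vector. Its other 2 probe sets lay below the filter and were not tested, with -0.20 each. By the tested probe sets of Hpx and Fgb the ED mutant arrays lay above the 6 others. These were 2 of 16 tested liver-type plasma protein genes, 0 were lower, and the median over the 16 was 0.13, beside -0.0041 over all 10904 genes tested, of which 1.01% were called, 0.688% higher and 0.321% lower (1 probe set per gene, that with the highest mean). Serpina1, the antitrypsin gene, had 6.44 and 6.18 in the ED mutant and 5.76 and 5.75 in the CD mutant (0.55, adjusted p = 0.0515), and albumin (Alb) and the liver transcription factor Hnf4a had 0.24 and 0.28, neither passing. Spp2, a secreted phosphoprotein of plasma and bone, had 8.42 and 8.54 in the ED mutant and 7.45 and 7.28 in the CD mutant (2.17-fold, adjusted p = 0.00153). Lgals4, galectin-4 of the gut lining, had 9.90 and 9.99 in the ED mutant and 8.88 and 8.97 in the CD mutant (2.03-fold, adjusted p = 0.00153), and none of the other 16 tested S100 proteins, galectins and caveolar genes was called. The calls of Hpx, Spp2 and Lgals4 held without any 1 of the 4 arrays, whereas Fgb kept its call only without CD mutant array 2 (adjusted p = 0.0499; 0.067 to 0.0991 without the others).

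Regulators formed a further group among the 15 largest rises. Sgk1, a kinase induced by serum and glucocorticoids that regulates ion transport, had 11.37 and 11.51 in the ED mutant and 10.43 and 10.51 in the CD mutant, a difference of 0.97 (SE 0.0899, adjusted p = 0.00226). Rnf128, a ubiquitin ligase of endosomes, had 11.50 and 11.59 in the ED mutant and 10.60 and 10.57 in the CD mutant, and its second probe set rose by the same 0.96 (adjusted p = 0.00222 and 0.0111). Both genes stood near the CD mutant level with the empty vector (Sgk1 10.42 and 10.39, Rnf128 10.62 and 10.72), so the ED mutant arrays were the high ones. Without any 1 of the 4 arrays the calls of Sgk1 and of the first Rnf128 probe set held.

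**Figure D2:**
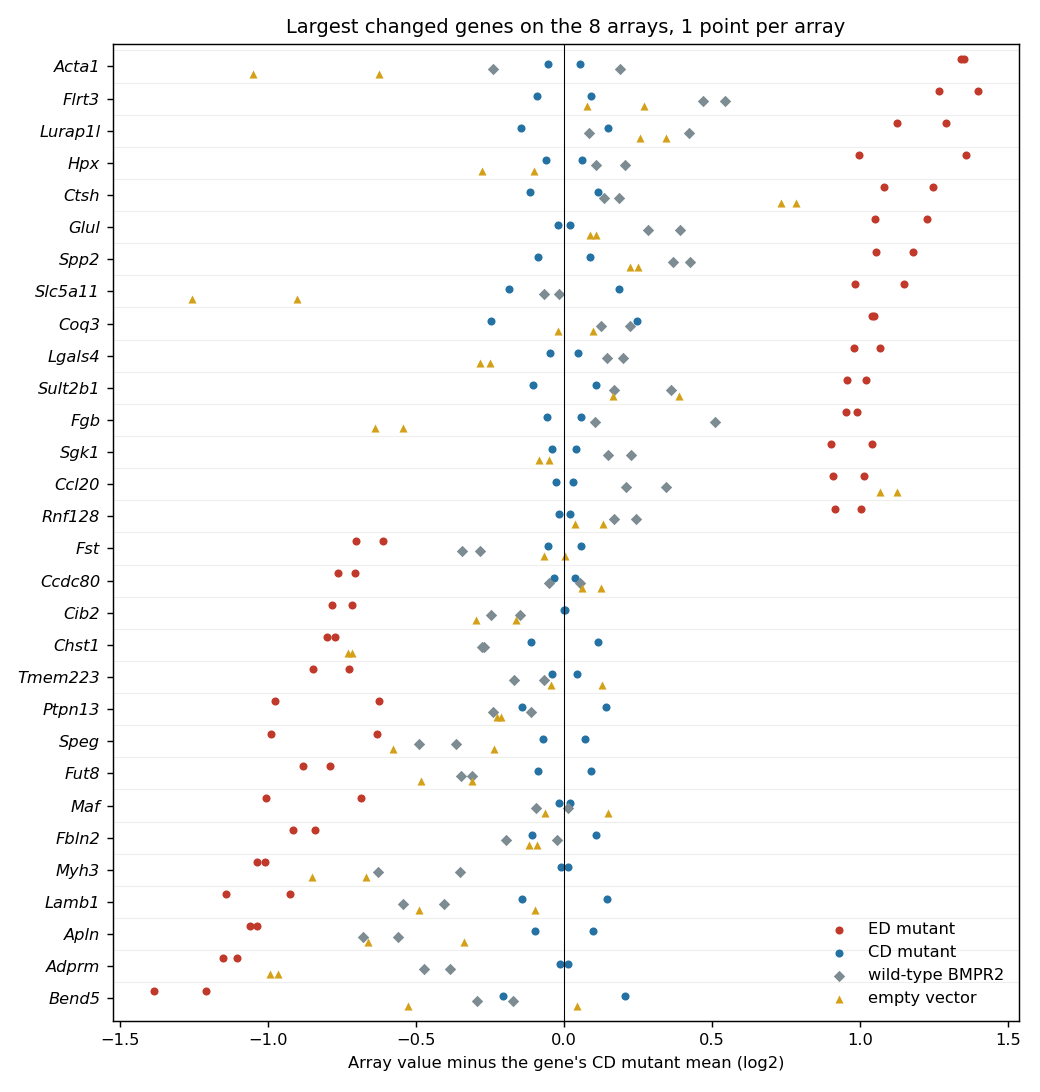
For each of the 15 largest rises (top) and 15 largest falls (bottom), each point is 1 array, drawn as its log2 value minus the gene's CD mutant mean; red circles are ED mutant, blue circles CD mutant, grey diamonds wild-type BMPR2 and yellow triangles empty vector, 2 arrays each. The ED mutant arrays lie apart from the CD mutant arrays for every gene drawn, because that was a condition for being drawn. The wild-type BMPR2 arrays mostly stand nearer to the CD mutant than to the ED mutant.

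Among the genes that were lower in the ED mutant, Adprm, a phosphatase that splits ADP-ribose, had the lowest adjusted p. It stood at 8.70 and 8.65 in the ED mutant and at 9.79 and 9.82 in the CD mutant, with 9.33 and 9.42 in wild-type BMPR2 cells and 8.83 and 8.81 in empty vector cells. The difference was -1.13 (SE 0.0836, adjusted p = 0.00132), and its second probe set was lower by the test too, at -0.90 (adjusted p = 0.0169). The CD mutant arrays were thus the highest of all 8 and the ED mutant arrays the lowest. Adprm was the only fall called without any 1 of the 4 arrays. Bend5, a BEN domain protein, had 3.59 and 3.76 in the ED mutant and 4.77 and 5.18 in the CD mutant (-1.30, SE 0.185, adjusted p = 0.0156), but its ED mutant level lay below the filter, so the size of the fall was not measured exactly. It was tested in 3 of the 4 fits with 1 array left out, at adjusted p-values of 0.0473 to 0.134.

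Apln encodes apelin, a peptide hormone that widens blood vessels and whose receptor is Aplnr. One probe set had 5.46 and 5.43 in the ED mutant and 6.59 and 6.40 in the CD mutant (-1.05, SE 0.121, adjusted p = 0.00546), with wild-type BMPR2 (5.93 and 5.82) and empty vector (6.16 and 5.83) in between. The other probe set of Apln pointed the opposite way, at 5.79 and 5.82 in the ED mutant and 5.62 and 5.65 in the CD mutant (0.17, adjusted p = 0.512), so the direction for the gene is not settled by these arrays. Leaving out single arrays gave adjusted p-values of 0.0201 to 0.0631 for the called probe set, which lost its call without ED mutant array 2 and without CD mutant array 1. It was the 1 member called of 20 tested vasoactive genes; endothelin-1 (Edn1), a constrictor peptide, had 0.33 (adjusted p = 0.163), and prostacyclin synthase (Ptgis) 0.21 (adjusted p = 0.387).

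Muscle genes did not move as a group. Myh3, the myosin heavy chain of embryonic skeletal muscle, had 6.47 and 6.44 in the ED mutant and 7.49 and 7.46 in the CD mutant (-1.02, SE 0.11, adjusted p = 0.00433), opposite to Acta1. These were the 2 genes called of 15 tested sarcomere and myogenic genes, whose median was 0.0067, beside 1.01% called over all genes tested. Speg, a kinase of striated muscle, had 5.09 and 5.45 in the ED mutant and 6.15 and 6.01 in the CD mutant (-0.81, adjusted p = 0.0408), and its other probe set had -0.32 without passing (adjusted p = 0.286). Of 16 tested smooth muscle contractile genes 0 were called, with a median of 0.02, although 3 had an unadjusted p under 0.05. Csrp1, a LIM protein of the actin cytoskeleton, had the lowest adjusted p of these, 0.0886, at 8.03 and 7.98 in the ED mutant and 7.61 and 7.63 in the CD mutant. Smooth muscle actin (Acta2) had 6.41 and 6.22 in the ED mutant and 6.15 and 6.25 in the CD mutant, which overlapped. The call of Speg was lost without any 1 of the 4 arrays (adjusted p = 0.0632 to 0.219) and that of Myh3 only without ED mutant array 2.

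Epithelial genes were higher in the ED mutant for 4 of the 10 tested markers, and 0 were lower. Over all 10904 genes tested, 0.688% were called higher and 0.321% lower. Krt8 and Krt18 are the paired keratins of simple epithelia and Krt19 a further keratin of ducts. Krt19 had 9.78 and 9.81 in the ED mutant and 9.03 and 9.13 in the CD mutant (0.72, SE 0.085, adjusted p = 0.00575). Krt8 had 8.78 and 9.10 in the ED mutant and 8.22 and 8.33 in the CD mutant (0.67, adjusted p = 0.0325). Krt18 had 11.79 and 11.82 in the ED mutant and 11.26 and 11.31 in the CD mutant (0.52, adjusted p = 0.0227). All 3 keratins were higher on both ED mutant arrays than on the 6 others. The mean log2 value of the 12 markers was 7.12 and 7.11 on the ED mutant arrays and 6.90 and 6.91 on the CD mutant arrays, with 6.93 and 6.95 for wild-type BMPR2 and 6.97 and 6.95 for the empty vector. The median difference over the 10 tested markers was 0.23, and Krt7 and occludin (Ocln) had 0.23 each without passing, while Cdh16, Cldn3, Cldn7 and Esrp1 had -0.04 to -0.15. The keratin calls were not stable to the loss of 1 array: the adjusted p reached 0.0631 for Krt19 without ED mutant array 2, 0.171 for Krt8 and 0.135 for Krt18 without CD mutant array 1.

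The cadherins changed in opposite directions. Cdh1, E-cadherin of epithelial junctions, had 10.27 and 10.23 in the ED mutant and 9.53 and 9.80 in the CD mutant (0.58, SE 0.102, adjusted p = 0.0372). Cdh2, N-cadherin of mesenchymal and neural cells, had 9.69 and 9.66 in the ED mutant and 10.25 and 10.31 in the CD mutant (-0.61, SE 0.0886, adjusted p = 0.0169). A second Cdh2 probe set had -0.38 and another -0.05, neither passing (adjusted p = 0.18 and 0.945). With wild-type BMPR2 Cdh1 stood near the CD mutant (9.65 and 9.70) and Cdh2 between the mutants (10.00 and 9.92). The other 21 of 23 tested cadherin and junction genes were not called, among them the gap junction gene Gja1 (-0.48, adjusted p = 0.0645). Without 1 array the adjusted p of Cdh1 ran from 0.0364 to 0.194, keeping the call only without CD mutant array 2, and that of Cdh2 from 0.0896 to 0.115.

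Genes of the matrix and of adhesion to it changed in both directions, with 3 laminin, fibulin and other matrix genes lower and 2 adhesion genes higher. Lamb1, a beta chain of laminin in basement membranes, had 5.92 and 6.14 in the ED mutant and 6.92 and 7.21 in the CD mutant (-1.03, SE 0.148, adjusted p = 0.0156). Itgb4, the beta integrin of hemidesmosomes, went the other way, with 8.25 and 8.27 in the ED mutant and 7.78 and 7.80 in the CD mutant (0.47, adjusted p = 0.0477), and its partner Itga6 had 0.40 (adjusted p = 0.0742). With Flrt3, these made 2 higher and 1 lower of 21 tested basement membrane, integrin and adhesion genes, whose median was -0.04. Fbln2, the matrix protein fibulin-2, had 6.79 and 6.72 in the ED mutant and 7.74 and 7.52 in the CD mutant (-0.88, SE 0.103, adjusted p = 0.00575). Ccdc80, a secreted matrix protein, had 5.90 and 5.85 in the ED mutant and 6.64 and 6.57 in the CD mutant (-0.73, SE 0.0872, adjusted p = 0.00575). For both genes the ED mutant arrays were the lowest of the 8. These were the 2 called, both lower, of 16 other matrix genes, which had a median of -0.10 and 11 members below 0. Over all genes tested 0.321% were called lower. Osteopontin (Spp1) had -0.48 and the growth factor Ccn2 0.47 without passing (adjusted p = 0.0686 and 0.148). Of 18 collagens and collagen enzymes 0 were called, Col6a3 having the lowest adjusted p (5.90 and 5.85 in the ED mutant, 6.24 and 6.26 in the CD mutant, adjusted p = 0.0821), and of 11 tested proteases and inhibitors 0 were called. Fbln2 and Ccdc80 lost their calls without ED mutant array 2 and without CD mutant array 1 (highest adjusted p = 0.0632 for each), and Lamb1 and Itgb4 lost theirs without any 1 array (0.0551 to 0.134 and 0.137 to 0.194).

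**Figure D3:**
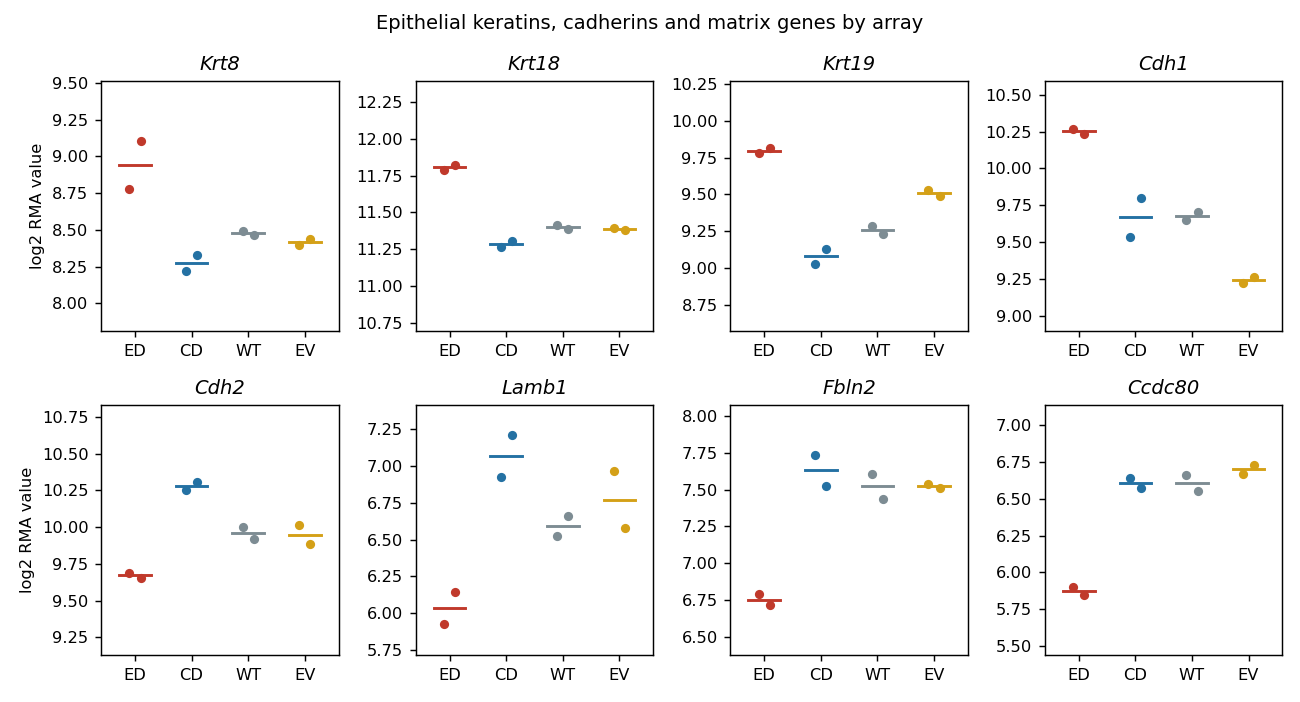
Log2 RMA values of 8 genes, 1 panel per gene with its own vertical range of equal span; each point is 1 array, each bar the mean of the 2 arrays of a group, with the ED mutant (ED) left of the CD mutant (CD), wild-type BMPR2 (WT) and empty vector (EV). Krt8, Krt18, Krt19 and Cdh1 are higher, and Cdh2, Lamb1, Fbln2 and Ccdc80 lower, on both ED mutant arrays than on both CD mutant arrays.

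Other named falls were spread over enzymes and regulators. Fut8, the fucosyltransferase that adds core fucose to glycoproteins, had 7.74 and 7.84 in the ED mutant and 8.54 and 8.72 in the CD mutant (-0.84, SE 0.101, adjusted p = 0.00575). Chst1, which sulfates keratan sulfate, had 4.83 and 4.86 in the ED mutant and 5.74 and 5.52 in the CD mutant (-0.79, adjusted p = 0.00604), with the ED mutant mean below the filter. Cib2, a calcium- and integrin-binding protein, had 8.58 and 8.51 in the ED mutant and 9.30 and 9.29 in the CD mutant (-0.75, adjusted p = 0.00575). In all 3 the mutants did not overlap, and the wild-type BMPR2 means lay between them. Ptpn13, a tyrosine phosphatase, and Tmem223 differed by -0.80 and -0.79 (adjusted p = 0.0314 and 0.00723). Maf, a leucine zipper transcription factor, had 5.13 and 5.45 in the ED mutant and 6.15 and 6.12 in the CD mutant by 1 probe set (-0.85, adjusted p = 0.0156), while its other 2 probe sets had -0.14 and -0.11 and were not called. Without 1 array the highest adjusted p was 0.0706 for Fut8, 0.0675 for Chst1, 0.0632 for Cib2, 0.119 for Maf, 0.17 for Ptpn13 and 0.067 for Tmem223.

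Genes of the BMP pathway itself were compared between the mutants at the level of RNA. The rat Bmpr2 gene had 7.003 and 6.791 in the ED mutant and 7.210 and 6.849 in the CD mutant by 1 probe set, and 5.24 and 5.06 in the ED mutant and 5.45 and 5.39 in the CD mutant by the other. Neither difference passed the test (-0.13, 95% interval -0.44 to 0.18, adjusted p = 0.738; and -0.27, adjusted p = 0.313). The mutants overlapped in the first probe set and not in the second. Cross-binding of the human transcript by these probe sets was not tested, so they do not check the level of the transgene. Over all 10904 genes tested 1.01% were called, so 0 calls in a short list lies near that share and says little about its members. Of 14 tested ligands and 18 tested receptors and Smads, 0 were called, with medians of -0.02 and -0.04. At an unadjusted p under 0.05 there were 4 and 2. Tgfb2 and Smad3 had the lowest adjusted p of each list, with -0.42 (adjusted p = 0.217) and -0.28 (adjusted p = 0.257).

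Of 15 tested BMP target genes 1 was called. Id2, an inhibitor of helix-loop-helix transcription factors, had 11.09 and 11.02 in the ED mutant and 10.42 and 10.49 in the CD mutant (0.60, 95% interval 0.40 to 0.80, adjusted p = 0.0184). With wild-type BMPR2 it stood at 10.85 and 10.72 and with the empty vector at 11.22 and 11.15, so the CD mutant arrays were the lowest of the 8. A second Id2 probe set had 0.32 and was not called (adjusted p = 0.18). The call of the first was lost without any 1 of the 4 arrays, at adjusted p-values of 0.0762 to 0.135. Id1 had 10.64 and 10.63 in the ED mutant and 10.46 and 10.42 in the CD mutant (0.20, 95% interval -0.01 to 0.40, adjusted p = 0.402). Id3 had 8.70 and 8.65 in the ED mutant and 8.80 and 8.77 in the CD mutant (-0.11, 95% interval -0.39 to 0.17, adjusted p = 0.76). Zeb2 had the lowest difference of the list, about as large as that of Id2 and opposite, without passing (-0.61, adjusted p = 0.143). It stood at 6.90 and 7.13 in the ED mutant and at 7.36 and 7.89 in the CD mutant. Sost had 0.34 (adjusted p = 0.222). The inhibitory Smads Smad6 and Smad7 had -0.20 and 0.17 without passing (adjusted p = 0.38 and 0.49). Id1, Id3 and Smad7 had higher adjusted p-values than Zeb2, Sost and Smad6 and are given in addition. The list ran from -0.61 to 0.60, and the median over the 15 genes was 0.00067. Fst, follistatin, which binds activins and some BMPs, was the 1 member called of 8 tested antagonists. It had 9.75 and 9.84 in the ED mutant and 10.51 and 10.40 in the CD mutant by 1 probe set (-0.66, SE 0.0889, adjusted p = 0.0119) and -0.67 by the other (adjusted p = 0.0429). The ED mutant arrays were the lowest of the 8 in both, and leaving out 1 array gave adjusted p-values of 0.0463 to 0.115 for the first and 0.0871 to 0.208 for the second.

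Genes of proteins that bind the BMPR2 tail, and of actin regulators near them, gave 0 calls of 18 tested, with a median of -0.04 and 3 genes at an unadjusted p under 0.05. Pak1, a kinase downstream of Rac, came nearest, with 8.50 and 8.62 in the ED mutant and 8.12 and 8.04 in the CD mutant (0.48, 95% interval 0.25 to 0.72, adjusted p = 0.0814). Dynlt1, the dynein light chain that binds the tail, averaged 9.17 ± 0.06 in the ED mutant and 8.96 ± 0.05 in the CD mutant (SD, n = 2 each; difference 0.20, adjusted p = 0.353). In both genes the mutants did not overlap, a property shared by 11 of the 18 and by 41.8% of all probe sets.

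Inflammatory genes were called in 2 of 20 tests, both higher, beside 0.688% called higher over all genes tested. This list too was chosen with earlier results known, so the count is a description only. Ccl20, a chemokine that attracts cells bearing its receptor Ccr6, had 7.95 and 8.05 in the ED mutant and 7.01 and 7.07 in the CD mutant (0.96, SE 0.0907, adjusted p = 0.00239), and its call held without any 1 of the 4 arrays. Ccl2, which attracts monocytes, had 7.48 and 7.49 in the ED mutant and 6.80 and 6.94 in the CD mutant (0.61, SE 0.0907, adjusted p = 0.0181). For both the empty vector arrays stood highest, at 8.16 and 8.10 for Ccl20 and 8.88 and 8.84 for Ccl2, and the CD mutant arrays lowest. Ccl2 lost its call without any 1 array (adjusted p = 0.0532 to 0.125), and the list median was -0.03. Irf1, a transcription factor of the interferon response, had 7.62 and 7.71 in the ED mutant and 6.98 and 7.09 in the CD mutant (0.63, adjusted p = 0.0168; 0.0611 to 0.123 without 1 array). The other 15 tested interferon response genes were not called.

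Of 23 tested immediate early and stress transcription factor genes, 1 was higher and 1 lower. Klf4, a factor of epithelial and smooth muscle differentiation, had 11.05 and 11.04 in the ED mutant and 10.19 and 10.27 in the CD mutant (0.82, SE 0.0866, adjusted p = 0.00426). Myc, a driver of growth, had 8.23 and 8.22 in the ED mutant and 8.86 and 8.78 in the CD mutant (-0.59, SE 0.086, adjusted p = 0.0169). For Klf4 the ED mutant arrays lay above, and for Myc below, all 6 others. The call of Klf4 held without any 1 array, and that of Myc was lost without each of them (adjusted p = 0.071 to 0.122). Egr1 and Jun, which respond to growth signals, had -0.55 and 0.49 without passing (adjusted p = 0.057 and 0.075). Odc1, a Myc target that starts polyamine synthesis, was lower by the test at -0.59 (adjusted p = 0.0194) and was chosen after its values were seen. Cell cycle genes gave 0 calls of 22 tested, with a median of 0.04 and 3 at an unadjusted p under 0.05.

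Over all 10904 genes tested 1.01% were called, so 0 calls in a short list lies near that share and does not show its members unchanged. Altogether 13 of the 28 gene lists had 0 members called in this limma fit. Besides those already described they were p53 targets (14 tested, median 0.09, 7 at an unadjusted p under 0.05), hypoxia and glycolysis genes (20, median 0.0012, 2), cholesterol synthesis genes (18, median 0.16, 7), NRF2 and metallothionein genes (13, median 0.05, 2), unfolded protein response genes (21, median 0.05, 2) and Wnt and Notch genes (20, median -0.11, 0). Of the cholesterol synthesis genes 14 of 18 had a positive difference, and the lowest adjusted p was that of Fdft1, squalene synthase, with 7.06 and 6.99 in the ED mutant and 6.63 and 6.67 in the CD mutant (0.38, adjusted p = 0.0898). Of the Wnt and Notch genes 17 of 20 had a negative one, and the 20 ran from -0.21 to 0.15. No list had more than 3 members called.

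**Figure D4:**
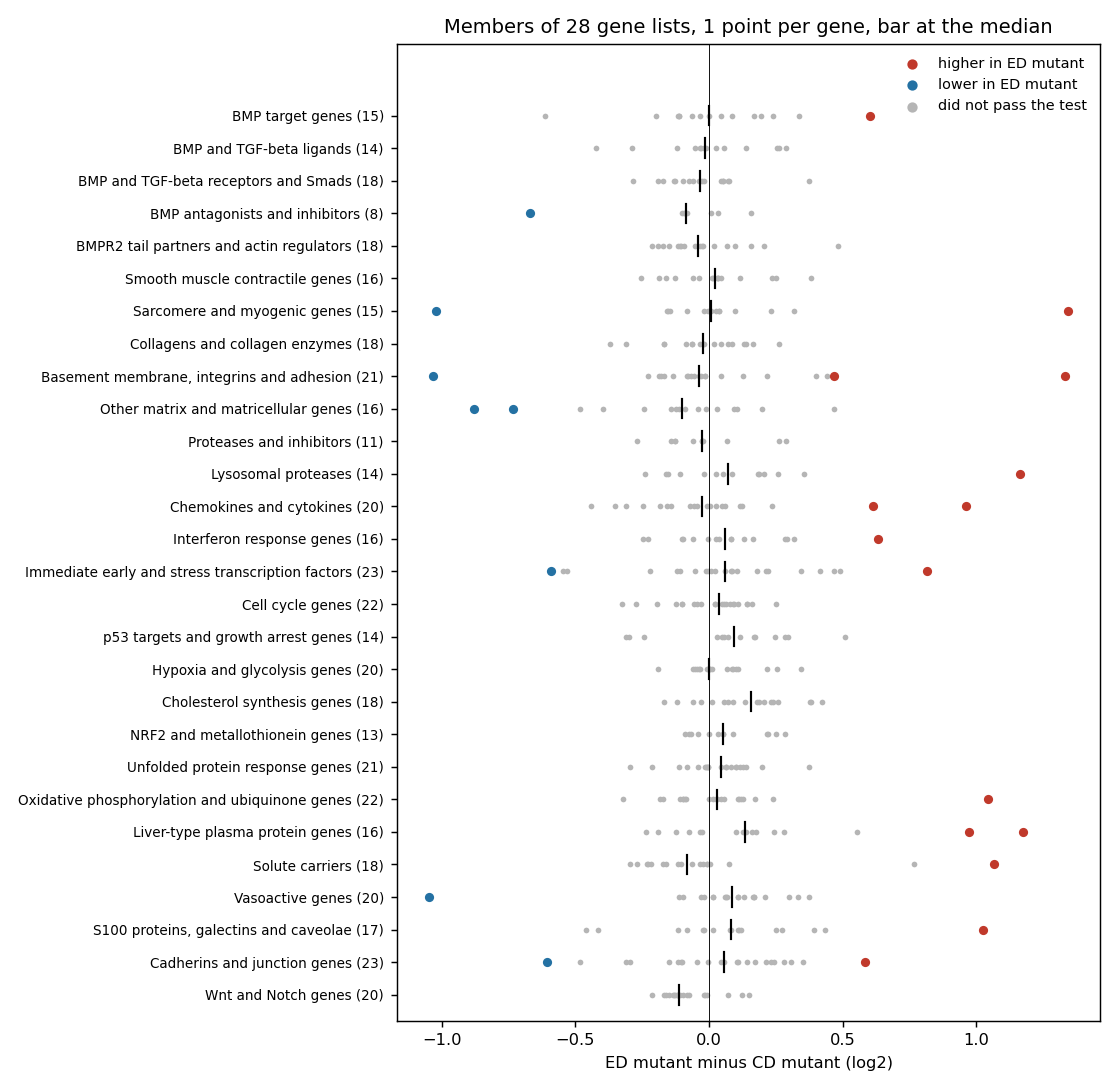
Each point is 1 tested gene (its probe set with the highest mean) of 28 gene lists, placed by its ED mutant minus CD mutant difference (log2), with the number of tested genes in brackets and a black bar at the list's median; red and blue mark genes called higher and lower in the ED mutant. In most lists 0 or 1 genes are coloured, and every median lies between -0.11 and 0.16.

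Among changed genes outside the lists, chosen after their values were seen, several are known from epithelia. Lsr, a receptor of tricellular junctions, had 9.99 and 9.84 in the ED mutant and 9.08 and 9.16 in the CD mutant (0.80, adjusted p = 0.00513). Fxyd3, a regulator of the sodium pump, had 7.57 and 7.47 in the ED mutant and 6.69 and 6.81 in the CD mutant (0.77, adjusted p = 0.00541). Foxa2, a transcription factor of endodermal organs, had 8.50 and 8.39 in the ED mutant and 7.88 and 7.70 in the CD mutant (0.65, adjusted p = 0.0223). Guca2b and Guca2a, the gut peptides uroguanylin and guanylin, differed by 0.87 and 0.59 (adjusted p = 0.00245 and 0.0226). Of these 5, Guca2b alone kept its call without any 1 array. Marcks, a substrate of protein kinase C that binds actin, was higher by 2 of its 5 tested probe sets, by 0.96 and 0.85 (adjusted p = 0.00493 and 0.00295), with 0.30 to 0.57 in the other 3. Aqp1, a water channel, had 8.99 and 8.59 in the ED mutant and 7.92 and 7.85 in the CD mutant (0.91, adjusted p = 0.0156), and its other probe set had 0.13 (adjusted p = 0.805). On the lower side, nuclear regulators were present: the acetyltransferase Crebbp (-0.50, adjusted p = 0.0275), the coactivator Ncoa1 (-0.63, adjusted p = 0.0194), the methyltransferase Nsd2 (-0.58, adjusted p = 0.0308) and the maintenance DNA methyltransferase Dnmt1 (-0.47, adjusted p = 0.0429). Crebbp had 9.71 and 9.73 in the ED mutant and 10.20 and 10.24 in the CD mutant, and its other 3 tested probe sets ran from -0.47 to 0.04 without passing. The other tested probe sets of Nsd2 ran from -0.50 to -0.09 and that of Ncoa1 had -0.51, none of them passing. Crebbp, Dnmt1 and Nsd2 lost their calls without any 1 array, and Ncoa1 kept its call only without CD mutant array 1.

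The promoters of the changed genes were read for 3 short motifs, because genes that move together may share them: the CArG box bound by serum response factor, which drives actins, TGACTCA bound by AP-1 factors, and the GC-rich GGCGCC that Smad proteins can bind. Windows ran from 250 bases before to 50 after the gene start in RefSeq (rat build GRCr8), both strands were read, and 64 of 78 higher and 36 of 44 lower genes had one. The CArG box was found in 6.25% of the higher (4 genes), 5.56% of the lower (2 genes) and 1.35% of all 9054 promoters of tested genes. TGACTCA was found in 10.9% (7 genes), 2.78% (1 gene) and 3.94%, and GGCGCC in 17.2% (11 genes), 27.8% (10 genes) and 20.7%. Several of these percentages thus rest on few genes. A further motif, CAGGTG, the E-box that represses Cdh1 when bound by Snail and Zeb factors, was added after the values were seen. It was found in 25% (16 genes), 5.56% (2 genes) and 18.2%. A match is a description of the letters and not a bound site. The 4 higher genes with a CArG box are shown because Acta1, the largest rise, is among them, and Krt8 because it holds both TGACTCA and the E-box; capitals mark the motifs, no 2 of which overlap.
Acta1, chr19:68784145-68784444, minus strand, CArG box at -94: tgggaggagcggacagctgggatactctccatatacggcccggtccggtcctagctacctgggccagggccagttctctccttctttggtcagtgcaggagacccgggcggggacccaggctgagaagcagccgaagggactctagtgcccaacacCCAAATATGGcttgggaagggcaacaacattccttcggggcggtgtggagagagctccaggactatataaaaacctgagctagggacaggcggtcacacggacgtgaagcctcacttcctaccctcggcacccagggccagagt
Fhl2, chr9:52923277-52923576, minus strand, CArG box at -58: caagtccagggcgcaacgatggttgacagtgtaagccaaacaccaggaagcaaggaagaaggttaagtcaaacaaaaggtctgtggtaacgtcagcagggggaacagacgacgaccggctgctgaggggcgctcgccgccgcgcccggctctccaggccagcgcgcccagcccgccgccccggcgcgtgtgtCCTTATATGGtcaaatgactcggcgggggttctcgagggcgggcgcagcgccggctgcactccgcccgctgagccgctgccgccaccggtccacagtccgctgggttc
Hpx, chr1:169352106-169352405, minus strand, CArG box at -108: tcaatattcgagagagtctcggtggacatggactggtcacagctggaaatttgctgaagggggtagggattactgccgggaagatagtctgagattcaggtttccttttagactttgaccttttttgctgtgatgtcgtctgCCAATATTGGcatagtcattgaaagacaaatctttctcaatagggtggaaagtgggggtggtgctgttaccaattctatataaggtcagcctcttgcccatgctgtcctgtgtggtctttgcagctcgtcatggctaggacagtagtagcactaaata
Rnf128, chrX:108028138-108028437, plus strand, CArG box at -194 and E-box at -176: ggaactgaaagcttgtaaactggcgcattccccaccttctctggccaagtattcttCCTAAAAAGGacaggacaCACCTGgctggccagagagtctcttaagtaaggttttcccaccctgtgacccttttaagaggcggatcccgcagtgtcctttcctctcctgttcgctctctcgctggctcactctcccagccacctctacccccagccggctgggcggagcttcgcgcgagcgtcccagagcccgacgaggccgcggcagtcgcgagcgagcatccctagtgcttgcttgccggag
Krt8, chr7:135010290-135010589, minus strand, E-box at -214 and TGACTCA at 14: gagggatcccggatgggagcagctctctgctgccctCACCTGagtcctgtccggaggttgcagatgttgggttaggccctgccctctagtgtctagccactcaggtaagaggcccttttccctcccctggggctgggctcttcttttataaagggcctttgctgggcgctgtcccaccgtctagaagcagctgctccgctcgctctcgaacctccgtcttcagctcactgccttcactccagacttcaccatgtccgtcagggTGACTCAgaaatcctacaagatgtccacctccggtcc
Positions are counted from the gene start, which is 1, to the motif's first base on the gene's strand. Fhl2, a LIM protein that binds serum response factor and integrins, had 9.29 and 9.22 in the ED mutant and 8.63 and 8.74 in the CD mutant (0.57, adjusted p = 0.0325; 0.0894 to 0.187 without 1 array).

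The wild-type receptor and the empty vector place the 2 mutants. For the 145 changed probe sets the wild-type BMPR2 mean lay nearer to the CD mutant in 125 and nearer to the ED mutant in 20; over all 19534 tested probe sets the numbers were 11008 and 8524. Nearer did not mean equal: the wild-type BMPR2 mean lay between the mutants in 133 of the 145, and in 7716 of all tested. The empty vector mean lay nearer to the CD mutant in 103 of the 145 and nearer to the ED mutant in 42, beside 10540 and 8991 of all tested. The median size of the difference from wild-type BMPR2 over the 145 was 0.50 for the ED mutant and 0.17 for the CD mutant. These comparisons share arrays with the one that chose the 145, so the numbers are a description. The 20 included Ccl2, Id2, Cdh2 and Apln, in which wild-type BMPR2 stood apart from the CD mutant by 0.32 to 0.62 on the log2 scale without passing the test. Fitted on its own, the ED mutant minus wild-type BMPR2 contrast called 55 probe sets (0.282%), 44 higher (0.225%) and 11 lower (0.0563%). The CD mutant minus wild-type BMPR2 contrast called 0 (0%) in limma, with 1019 at an unadjusted p under 0.05 where 977 would be expected and a lowest adjusted p of 0.934. Against the empty vector the ED mutant had 320 calls (1.64%) and the CD mutant 43 (0.22%), and wild-type BMPR2 itself had 3 (0.0154%). Among the genes named above, Acta1, Flrt3, Glul, Ctsh, Hpx, Lgals4, Sgk1, Klf4, Fbln2, Ccdc80 and Adprm also passed the test of the ED mutant against wild-type BMPR2, whereas Krt8, Krt18, Cdh1, Cdh2, Id2, Myc, Fst, Lamb1, Myh3 and Apln did not. A call in one contrast and none in the other does not show that the 2 differ, and that difference is the ED mutant against CD mutant comparison given throughout.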

How the data were processed

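RNA was measured on Affymetrix rat arrays. The authors deposited log2 values for 31099 probe sets, made by robust multi-array averaging (RMA), per the submitters' processing notes (version not stated there). This method is meant to bring all arrays to one distribution. The 8 fitted arrays had medians of 5.32 to 5.36, so a shift of all genes together would not be seen among them. The 2 kinase domain mutant arrays, outside the fit, had medians of 4.95 and 4.94 and thus a different distribution. The 57 control probe sets were set aside, and 19534 probe sets were kept that reached log2 4.90, the 40th percentile over all values, on 2 or more of 8 arrays. A linear model of the 4 groups was fitted with limma 3.58.1 in R 4.3.3, with moderated variances, and p-values were adjusted by Benjamini-Hochberg over the 19534; a probe set changed where the adjusted p was under 0.05. The calculation was tested on simulated data. The platform annotation gave 1 gene for 20832 probe sets, several for 436 and none for 9780; 20764 symbols were updated through RefSeq tables, and old annotation may misname some.

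The 15 largest named rises and the 15 largest named falls were named, with up to 4 genes of each of 28 gene lists, 1 probe set per gene (that with the highest mean) in list counts. The rises and falls were taken from changed probe sets on which the arrays of the ED and CD mutants did not overlap. The genes and lists were chosen with earlier results of these data known. Alternatives covered the filter, the scaling, the variance model, the arrays in the fit, the thresholds and each array left out.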

Additional observations from a re-analysis of the deposited data

Results flagged for a closer look

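Probe sets outside the comparison stood above their level on the empty vector arrays in 3 cases. The poly-A spike-in controls averaged 8.26 on the ED mutant arrays (8.24 to 8.28) and 8.59 on the CD mutant arrays (8.56 to 8.62), against 7.76 to 8.02 on the empty vector arrays, all on the log2 scale. The remaining control probe sets averaged 9.645 on the CD mutant arrays (9.64 to 9.65), against 9.62 on both empty vector arrays. The part of these controls in the results was not tested.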

How the results depend on the processing

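The direction of all changed probe sets was the same under each alternative in which they were tested, but their number was not stable. Against 145 changed (89 higher, 56 lower in the ED mutant), there were 79 (55 and 24) with no filter, 305 (177 and 128) with the filter at the 60th percentile, 647 (352 and 295) with an intensity trend and robust variance, 43 (31 and 12) with only the 4 ED and CD mutant arrays in the fit, and 79 (55 and 24) with all 10 arrays. Of the 145, 76 were called with no filter, 143 with the trend, 42 with only the 4 arrays and 77 with all 10. An adjusted p under 0.01 left 38 (28 and 10), and a minimum of 1.5-fold left 92, 30 of them lower. Leaving out 1 mutant array gave 24 to 54 calls, 22 to 44 higher and 2 to 10 lower; 17 of the 145 were called in all 4 of these fits and 81 in none. Quantile normalization gave 166, centring on the median 151, a filter on the 4 mutant arrays 159 and 1 probe set per gene 189. A difference turned its sign in 2 cases, neither called: 1 probe set of Bmpr2 (-0.31 to 0.048 with 1 array left out, positive without CD mutant array 1) and Sostdc1 (-0.099 to 0.41, negative without ED mutant array 2). The causes were not tested.

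With the replicate number as a block there were 93 calls, 27 of them lower, and 92 of the 145 were among them; 71.0% of the 93 were higher, against 61.4% of the 145. Among the genes named in the text, the probe sets that lost their calls under the block were those of Cdh1, Fhl2 and Nsd2 (adjusted p = 0.0558 each), Crebbp and Lamp2 (0.0503 each), Dnmt1 (0.0685), Itgb4 (0.0734), Speg (0.076) and 1 of Fst (0.0736). The deviations of same-numbered arrays correlated at 0.157 between the ED and CD mutants and at -0.036 to 0.055 between other groups, so the numbers were not taken to pair the arrays.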

Other observations

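The kinase domain mutant arrays, which entered no comparison, stood far from the other 8 for many of the genes named. Their values as a whole also lay on another scale, with medians of 4.95 and 4.94 against 5.32 to 5.36. The SD over all probe sets was 2.26 and 2.27, against 1.89 to 1.91. Control probe sets other than spike-ins averaged 8.81, against 9.62 to 9.65 in the other groups. The part of this scale in the gaps below was not tested. Acta1 had 4.77 and 4.80 there, against 5.99 to 8.39 on the 8 arrays, and Sgk1 had 7.57 and 7.63, against 10.39 to 11.51. Ccdc80 had 12.04 and 11.85, against 5.85 to 6.73, and Lamb1 had 9.34 and 9.41, against 5.92 to 7.21. Coq3 had 7.49 and 7.48, against 5.48 to 6.77. Myh3, at 6.66 and 6.58, lay within the range of the 8 arrays.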
